A study of Homo sapiens with 19 samples.

Results

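Metallothioneins are small, cysteine-rich proteins that bind zinc and copper and, on exposure, cadmium. Their genes are switched on when free zinc rises, through MTF1 (metal regulatory transcription factor 1), a zinc finger protein that binds short metal response elements in their promoters, and several of them also respond to glucocorticoids and to oxidative and heat stress. MT2A and the MT1 genes are made in most tissues, whereas MT3 is best known from the brain. The 10 genes described here are the metallothioneins MT2A, MT1X, MT1E, MT1F, MT1G, MT1H, MT1M, MT1A and MT3 and the factor MTF1. They were chosen by symbol, through the RefSeq transcript that the array files give for each probe, and they are 10 of 20503 genes named on the array.

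KhES-3 cells, an established line of human embryonic stem cells, were moved into low-attachment dishes to become brown adipocytes, the heat-producing fat cells. The serum-free medium held insulin, transferrin, selenium, albumin, lipids, ascorbic acid phosphate and monothioglycerol, with the factors BMP4, IGF-II, KITLG, VEGFA, FLT3LG and IL-6, and all samples shared it, so that time was the only labelled difference between them. The labels name a mouse feeder layer for the stem cells before induction, and the study's methods name a feeder-free system. A single RNA sample was taken at each of 19 times from 3 to 72 h after induction, and each was hybridised to 1 one-colour Agilent array, without replicates. Of 3 slides, the first carried the 6 arrays of 3, 4, 6, 8, 10 and 12 h, the second the 8 arrays of 14, 16, 20, 24, 28, 32, 36 and 42 h and the last the 5 arrays of 48, 54, 60, 66 and 72 h, which were scanned on a later day. Signals are given after each array was scaled to a common 75th percentile of 871, on a linear scale, so that a value compares the same probe between arrays and says nothing of one gene against another.

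All 13 probes of the 10 genes were well above background on all 19 arrays. MT1X, MT1E and MT1H had 2 probes each and the other genes 1, and the brighter probe stands for the gene. Metallothionein transcripts are near copies of each other, and the probe sequences were not used here, so how far a probe reads a neighbouring family member was not tested.

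The pluripotent markers, which define the cells at the start, were above background throughout. Each of the 6 with a probe (of 7 listed) was well above background on all 19 arrays, with POU5F1 between 248981 and 380191. Over the 19 arrays 3 of the 6 fell (DNMT3B, from 181798 at 3 h to 93640 at 72 h, POU5F1 and LIN28A), where 22.4% of all probes did, and 0 rose. Markers of mature fat were at or near background: ADIPOQ and FABP4 were well above background on 0 of the 19 arrays and UCP1 on 8, with a highest signal of 70.5 at 28 h. Of the other 3 listed, CIDEA was well above background on 8 arrays and PRDM16 on 13, and PPARG, the master regulator of fat cells, on 8. PPARG was the only one of 4 tested to rise over the 19 arrays, where 30.9% of probes did, with a highest signal of 54.6 at 66 h (0.0244 ± 0.00416 (SE) per hour, adjusted p = 7.9e-05). In such bulk samples, fewer cells of a type and less RNA per cell cannot be told apart.

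The metallothionein genes lie side by side on chromosome 16, in the order MT4, MT3, MT2A, MT1E, MT1M, MT1A, MT1B, MT1F, MT1G, MT1H and MT1X, and MTF1 lies on chromosome 1. The 250 bases before the start of transcription (RefSeq, GRCh38.p14) were read for 4 of the 10 genes, MT2A, MT1H, MT1X and MTF1, and for SLC30A1, the zinc exporter of the cell membrane, which is also a known target of MTF1. The core of the metal response element was searched as TGCACNC and as TGCGCNC on both strands. The windows of the 3 metallothioneins and of SLC30A1 are shown because they hold the motif and belong to genes whose courses are described next, with each match in capitals, written 5′ to 3′ on the strand of the gene.
MT2A (chr16:56608334-56608583, plus strand, 7 matches): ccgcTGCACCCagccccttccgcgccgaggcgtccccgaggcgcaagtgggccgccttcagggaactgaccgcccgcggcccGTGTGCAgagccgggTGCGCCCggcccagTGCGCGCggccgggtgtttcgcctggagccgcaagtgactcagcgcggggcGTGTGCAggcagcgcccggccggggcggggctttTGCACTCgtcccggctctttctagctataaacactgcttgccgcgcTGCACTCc
MT1H (chr16:56669564-56669813, plus strand, 8 matches): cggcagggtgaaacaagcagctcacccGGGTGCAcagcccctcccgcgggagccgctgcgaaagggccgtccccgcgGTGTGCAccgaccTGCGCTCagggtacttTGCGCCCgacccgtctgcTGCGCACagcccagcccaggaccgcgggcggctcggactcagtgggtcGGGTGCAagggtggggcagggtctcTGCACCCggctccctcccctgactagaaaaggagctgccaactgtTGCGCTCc
MT1X (chr16:56682220-56682469, plus strand, 4 matches): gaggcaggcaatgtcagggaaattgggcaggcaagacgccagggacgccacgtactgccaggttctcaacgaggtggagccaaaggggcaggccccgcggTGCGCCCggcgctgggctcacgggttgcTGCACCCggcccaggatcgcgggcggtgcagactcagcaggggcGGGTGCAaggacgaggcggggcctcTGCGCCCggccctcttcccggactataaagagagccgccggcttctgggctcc
SLC30A1 (chr1:211579162-211579411, minus strand, 1 match): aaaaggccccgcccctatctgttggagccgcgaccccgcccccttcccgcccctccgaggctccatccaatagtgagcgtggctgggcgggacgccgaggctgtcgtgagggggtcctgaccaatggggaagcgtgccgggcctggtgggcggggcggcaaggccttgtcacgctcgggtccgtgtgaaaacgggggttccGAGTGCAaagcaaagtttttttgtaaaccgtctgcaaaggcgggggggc
The window of MTF1 itself held 0 matches, and those of MT1B and MT4, outside the 10 genes, 3 each. Among all 35116 promoter windows of the same length, 24.8% held at least 1 match, 1.58% at least 3, 0.370% at least 4 and 0.0313% (11 windows) at least 7. A match describes the letters and was not tested for binding.

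MT2A, a widely expressed member of the family, had a long decline and then a late rise. Its signal was 21036, 19085, 17970, 18960, 16186 and 16546 on the first slide (3 to 12 h) and 13131, 9501, 10515, 11417, 10144, 10513, 6854 and 6457 on the second (14 to 42 h). From 48 h on it was 7295 at 48 h and 4425 at 54 h, the lowest of the series. It then stood at 53809, 98642 and 52099 at 60, 66 and 72 h. The 3 last arrays were thus above every array before them, by at least 2.48-fold with the 75th percentile scaling, while with spike-in scaling 72 h exceeded 3 h by only 0.37 on the log2 scale. The 66 h signal was 22.3 times the 54 h signal, a difference of 4.48 on the log2 scale, against 3.40 with spike-in scaling. Over the same 6 h from 54 to 60 h, MT2A moved by 3.60 on the log2 scale, while the median absolute change over all tested probes was 0.19, and 21 of 32112 probes went up by as much.

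**Figure D1:**
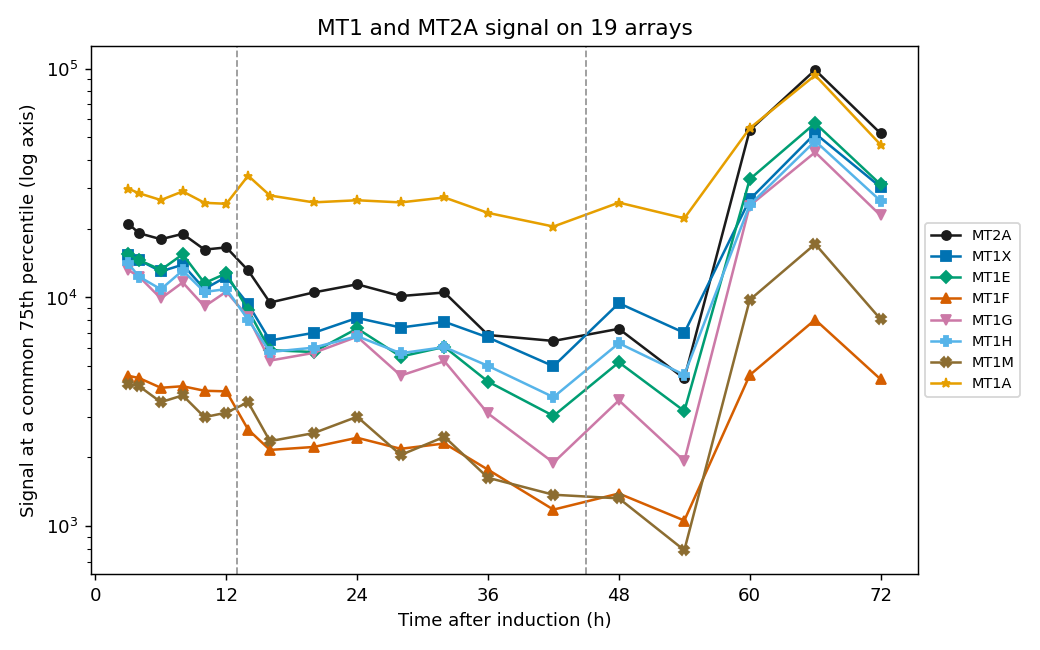
Signal of the 8 MT1 and MT2A genes (brighter probe) on the 19 arrays against hours after induction, at a common 75th percentile and on a log axis; dashed lines mark the change of slide. Most lines are lower at 42 or 54 h than at 3 h, then rise within the third slide to a maximum at 66 h, where MT2A reached 98642.

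The other 7 genes of the MT1 group were also highest at 66 h and lowest at 42 or 54 h, and differed in depth. By the brighter probes MT1G had the widest range, from 13183 at 3 h to 1899 at 42 h and 1932 at 54 h, then 25178, 43104 and 22820 at 60, 66 and 72 h. MT1E was at 15480 at 3 h and 3189 at 54 h, and at 32854, 57747 and 31165 on the last 3 arrays. MT1M went from 4204 at 3 h to 786 at 54 h, and to 9760, 17121 and 8035. Under the 75th percentile scaling, the lowest of the last 3 arrays was 1.73, 2.01 and 1.91 times the highest earlier array in MT1G, MT1E and MT1M. How many of all probes had such a gap was not counted. With spike-in scaling the 72 h value minus the 3 h value was −0.14 in MT1G, −0.001 in MT1M and 0.07 in MT1E on the log2 scale.

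By their brighter probes, MT1H and MT1X had a shallower trough. MT1H was at 14089 at 3 h, 3669 at 42 h and 4592 at 54 h, then at 25374, 48253 and 26422, and MT1X was at 15331, 5007 and 7006, then at 26806, 52067 and 30368. MT1F was 4.29 times higher at 3 h than at 54 h, against 4.75 times in MT2A, but reached less at the end: it was 4549 at 3 h and 1060 at 54 h, then 4580, 8001 and 4391. The dimmer probe of MT1H did not share the shallow trough: it was at 4557 at 3 h and 682 at 54 h, a 6.68-fold difference, and its maximum was 29.7 times its minimum. The 72 h signal of MT1F was 0.965 times its 3 h signal under this scaling. The lowest of the last 3 arrays was 1.80, 1.75 and 1.37 times the highest earlier array in MT1H, MT1X and MT1A. With spike-in scaling the 72 h value lay below the 3 h value in MT1F, MT1G, MT1H, MT1M and MT1A.

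MT1A had the shallowest course of the 8. Its signal lay between 20412 (42 h) and 34036 (14 h) on the first 16 arrays, with 29900 at 3 h and 22170 at 54 h, and reached 54878, 93512 and 46512 at 60, 66 and 72 h. Its maximum was 4.58 times its minimum, against 22.3 in MT2A and 22.7 in MT1G.

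The decline was tested on the 16 arrays from 3 to 54 h. The slope of log2 signal on hours was negative and passed the test in 8 of the 10 genes, namely MT2A and all 7 MT1 genes, where 20.6% of all 32113 probes fell in the same fit and 29.3% rose. Among the brighter probes it was steepest in MT1G (−0.0524 ± 0.00488 (SE) per hour, adjusted p = 7.8e-07) and flattest in MT1A (−0.00723 ± 0.00225, adjusted p = 0.0146), with MT2A at −0.0387 ± 0.00339 (adjusted p = 4.3e-07). These values come from limma with Benjamini-Hochberg adjustment over all probes tested, as do all that follow. In log2 units MT2A fell by 2.25 between 3 and 54 h, and by 2.09 with the arrays scaled to spike-in RNA, and the sign was negative in all 8 genes under the 75th percentile, the array median and the spike-in scaling. Part of this decline sits between slides, since the mean log2 signal of MT2A was 0.93 lower on the second slide than on the first, and there time and slide cannot be told apart. At the second slide change, from 42 to 48 h, MT1X, MT1G, MT1E and MT1H were higher by 0.91, 0.90, 0.78 and 0.78 on the log2 scale, sizes that 1.21%, 1.24%, 1.95% and 1.91% of probes reached, and MT2A by 0.18.

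The late rise lies within the third slide, so it compares arrays of the same slide and scan day. The slope over 48 to 72 h passed the test in 8 of 10 genes, again MT2A and the 7 MT1 genes, all upward, where 8.75% of all probes rose and 11.5% fell. By the brighter probes MT2A had the steepest slope, 0.169 ± 0.0325 (SE) per hour (adjusted p = 0.0022), followed by MT1G at 0.164 ± 0.0348 and MT1M at 0.161 ± 0.0339. The dimmer probe of MT1H was steeper, at 0.178 ± 0.0352. MT1A had the flattest of the 8, 0.0626 ± 0.0170 (adjusted p = 0.0173), and it no longer passed without the 48 h array (adjusted p = 0.109), without the 54 h array (0.0551) or with spike-in scaling (0.525). MT3 (0.00499 ± 0.00550) and MTF1 (−0.00158 ± 0.00766) did not pass. The course is not a line, and the slope is a summary of it. In all 8 genes the signal fell from 48 to 54 h, rose to 66 h and was lower again at 72 h.

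**Figure D2:**
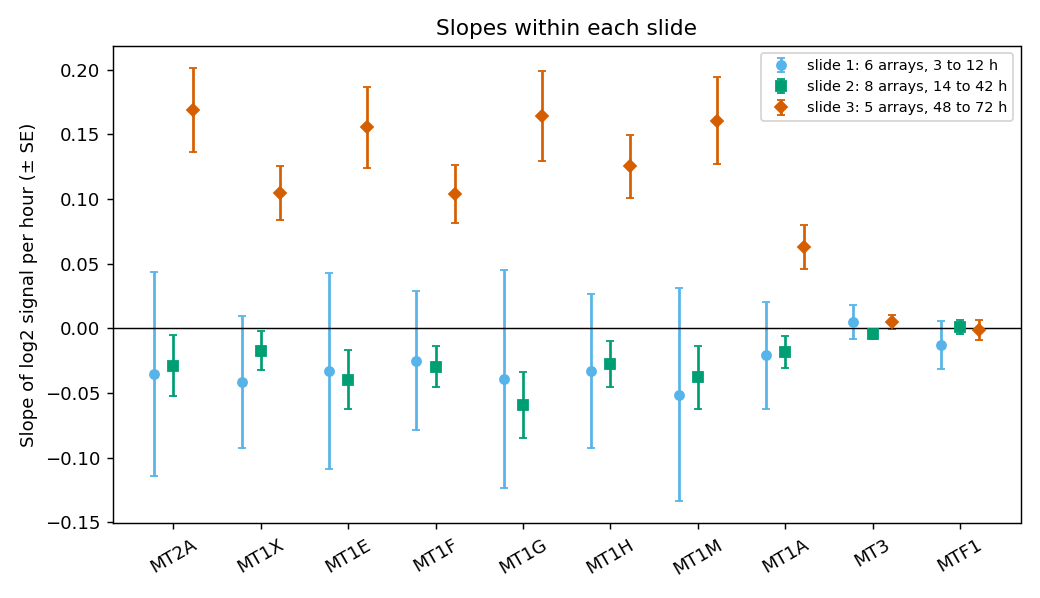
Slope of log2 signal per hour within each slide for the 10 genes (brighter probe), with bars of 1 SE from the fit. The marker shapes stand for the slides. From 48 to 72 h MT2A and the 7 MT1 genes lie between 0.0626 and 0.169, and MT3 and MTF1 lie near 0.

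Within the first 2 slides alone, 0 of the 10 genes passed the test. At an unadjusted p under 0.05 the first slide gave 0 genes and the second 1, MT1G (−0.0592 ± 0.0254 per hour), where 19% and 31.8% of all probes reached it. The background of adjusted calls was 2.31% of probes rising and 2.34% falling on the first slide, and 9.05% rising and 7% falling on the second. All 8 slopes of MT2A and the MT1 genes were negative on both slides. When the 60, 66 and 72 h arrays were left out, so that their scatter around a line no longer entered the error, 7 genes (MT2A and the MT1 genes other than MT1X) passed downward on the second slide, where 7.07% of probes did and 8.87% rose.

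A step was therefore added after seeing the data, as the difference in mean log2 signal between the last 3 arrays and the 2 before them. It was 3.52 ± 0.36 (SE) in MT2A, 3.48 ± 0.38 in MT1G, 3.43 ± 0.39 in MT1M, 3.26 ± 0.35 in MT1E, 2.57 ± 0.33 in MT1H, 2.16 ± 0.30 in MT1F, 2.10 ± 0.32 in MT1X and 1.37 ± 0.31 in MT1A. The median over all probes tested was 0.01, and all but the outer 5% lay between −0.93 and 0.84. Ranked by this difference among 32113 probes, MT1H (its dimmer probe), MT2A, MT1G, MT1M and MT1E (its dimmer probe) took ranks 2 to 6, and MT1L and MT1B of the same family ranks 7 and 8. The brighter probes of MT1E and MT1H had ranks 10 and 17, MT1F 29, MT1X 30 (its dimmer probe 78) and MT1A 169. With 5 arrays, limma called 0 probes of 32113 (0%) on this step, although 6666 (20.8%) had an unadjusted p under 0.05; the adjusted p of MT2A was 0.111. With normexp and quantile normalisation 8 of the 10 genes passed, where 0.536% of probes did upward, and with spike-in scaling 7 of 10, where 0.153% did and 24.9% fell. Under normexp 0.719% fell.

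The probe of MT1A, which lies between MT1M and MT1B on the chromosome, had the smallest step of the 8 (1.37). The probes of MT1M and MT1B had steps of 3.43 and 3.29. MT1A was read by 1 probe, so a difference between genes cannot be told apart from one between probes. Paired probes gave the same direction in all 3 genes with different sizes, 2.57 and 3.71 in MT1H, 2.10 and 1.65 in MT1X and 3.26 and 3.36 in MT1E, and their correlation over the 19 arrays was 0.979 in MT1H, 0.991 in MT1X and 0.992 in MT1E.

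The arrays at 66 and 72 h were also the dimmest, with an unscaled 75th percentile of 655 on each, against 839 at 54 h, and the spike-in RNA stood higher relative to it (4.74 and 4.75 in log2 units, against 3.66 at 54 h). Scaling to the spike-in RNA therefore lowered the step of all probes, with a median of −0.78, and that of MT2A to 2.73 and of MT1A to 0.58. The 60 h array, where the spike-in stood at 4.02, already held an MT2A signal 12.2 times that of 54 h.

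MT3 had a different course. It lay between 4119 and 4320 on the 6 arrays of the first slide, reached 9659 at 14 h, and lay between 7425 and 8711 on the rest of the second slide and between 6742 and 7600 on the third. Between 12 and 14 h it moved by 1.16 on the log2 scale, an amount that 1730 of 32056 probes (5.40%) reached or passed. This is the point where the slide changes, and the 14 h array had the lowest share of probes well above background (49.6%), so that slide and time cannot be told apart. Over all 19 arrays MT3 rose (0.0107 ± 0.00380 per hour, adjusted p = 0.0235), whereas a fit that blocked on slide gave −0.000758 ± 0.00335 (adjusted p = 0.916), with 0 of the 10 genes called where 4.71% of probes rose and 4.47% fell.

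MTF1, the metal-sensing factor, stayed within a 1.75-fold range. Its signal was 561 to 714 on the first slide, 408 to 526 on the second and 459 to 571 on the third, with 571 at 54 h and 491, 459 and 542 at 60, 66 and 72 h. The slope over 19 arrays was −0.00441 ± 0.00210 per hour and did not pass the test (adjusted p = 0.0828), whereas it passed downward with the array median (adjusted p = 0.0089), spike-in (0.00497) and normexp scaling (0.0404) and without the 72 h array (0.0457). With the array median 34.6% of all probes fell. The array does not measure the protein or its place in the cell.

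**Figure D3:**
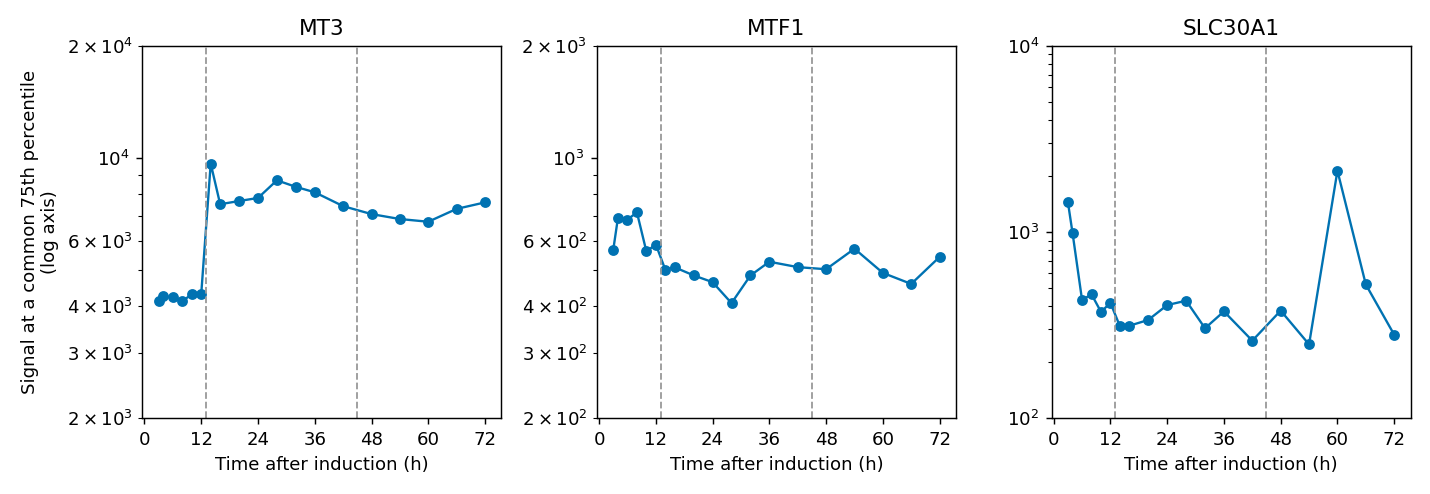
Signal of MT3, MTF1 and the zinc exporter SLC30A1 on the 19 arrays, at a common 75th percentile and on log axes of different range; dashed lines mark the change of slide. MT3 steps up at the first slide change, MTF1 stays between 408 and 714, and SLC30A1 is high at 3 h (1453) and at 60 h (2135).

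Over all 19 arrays a straight line described the family poorly, because a fall and a rise cancel in it. Of the 10 genes 2 rose, MT1A (0.0120 ± 0.00463 per hour, adjusted p = 0.0349) and MT3, and 0 fell, where 30.9% of all probes rose and 22.4% fell, and 1 more gene, MTF1, had an unadjusted p under 0.05. The call of MT1A was lost without the 60, 66 or 72 h array (adjusted p = 0.0927, 0.203 and 0.0861) and that of MT3 without the 3 h array (0.0524). A spline in log2 hours, which allows a bend, passed in all 10 genes, where 77.4% of all probes did, so this count says little about them. With the slide as a block it passed in 7 of 10 (not in MT1A, MT3 and MTF1), where 34.4% of probes did.

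The MT1 and MT2A signals moved together. Over the 19 arrays the pairwise correlation of log2 signal among the 7 genes other than MT1A lay between 0.85 and 0.99 (median 0.96 over 21 pairs), and that of MT1A with them between 0.71 and 0.90. The 3 late arrays form a cluster of their own, and on the 16 arrays from 3 to 54 h the values were 0.72 to 0.99 and 0.59 to 0.76. MTF1 correlated with the 8 genes between −0.22 and 0.27 over 19 arrays and between 0.14 and 0.70 over the 16. MT3 and MTF1 ran against each other (r = −0.81), and both change between the first and the second slide. These are descriptions, since the arrays share time and slide.

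Likeness of course was ranked among 13969 genes well above background on every array, and the lists leave out the metallothioneins and MTF1 chosen at the start. With those left out, the courses most like MT2A over the 19 arrays were those of 2 other metallothionein genes, MT1B (r = 0.994) and MT1L (0.993). Next came PRKAR1A (0.938), a regulatory subunit of protein kinase A, the chaperone HSP90AA1 (0.934) and SCFD2 (0.909). HSP90AA1 was at 122713 at 54 h and at 230192, 252070 and 289448 at 60, 66 and 72 h, so that it was still higher at 72 h, where MT2A was lower than at 66 h. The heat shock genes HSPA1A and HSPA1B, named after their values were seen, were at 7339 and 6929 at 54 h and 49615 and 38541 at 60 h. They were at 20523 and 13928 at 66 h, where MT2A and the MT1 genes were highest, and at 23401 and 15081 at 72 h. MT1H, which was left out, had r = 0.990 with MT1X over the 19 arrays, above every gene listed for MT1X. For MT1X the list was MT1B (0.972), MT1L (0.966), QPRT (0.945), PYCARD (0.940) and TUBGCP4 (0.935). For MTF1 it was TNFAIP1 (0.911), ANKRD33B (0.908), ZDHHC3 (0.895) and the small nucleolar RNAs SNORA48 (0.886) and SNORA3A (0.877), and TNFAIP1 was at 3919 at 3 h, 1495 at 28 h and 2177 at 72 h.

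Of 8 other listed genes of the family, 5 had a probe and 3 were tested, and 2 of these (MT1B and MT1L) rose from 48 to 72 h, where 8.75% of all probes did. MT1B was at 10837 at 3 h and 2494 at 54 h, and at 25669, 47649 and 23625 on the last 3 arrays, and MT1L, which is annotated as a pseudogene, at 11107, 2308, 24371, 45248 and 22384. Their slopes on the third slide were 0.157 ± 0.0314 and 0.158 ± 0.0318 per hour (adjusted p = 0.0029 and 0.0031). MT1IP, though well above background on all 19 arrays, lay between 42.7 and 113 and did not pass on that slide (adjusted p = 0.475), and MT4 and MT1DP were well above background on 0 of 19 arrays.

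None of the tested genes on either side of the cluster was called upward on the third slide. Of the 5 protein-coding genes on each side, 8 were tested, and on the third slide 0 rose, where 8.75% of probes did. Over all 19 arrays 3 rose (BBS2, NLRC5 and NUDT21) and 3 fell (GNAO1, NUP93 and OGFOD1, the last at −0.0109 ± 0.00163 per hour, and not past the test with a slide block, adjusted p = 0.211), where 30.9% and 22.4% of probes did. The rises depend on the scaling: with spike-in scaling BBS2, NLRC5 and NUDT21 did not pass (adjusted p = 0.227, 0.487 and 0.793), and with a slide block only NUDT21 of the 3 passed (0.0406), whose slope was −0.00256 per hour, without a call, when its detected probes were averaged. HERPUD1, a stress gene of the endoplasmic reticulum, was at 8141 at 54 h, 14000 at 60 h and 5474 at 66 h. SLC12A3 was well above background on 0 arrays and CETP on 1.

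SLC30A1 exports zinc from the cell and is the best known MTF1 target outside the family. Its signal was 1453, 984 and 432 at 3, 4 and 6 h, lay between 249 and 463 from 6 to 54 h, and was 2135, 523 and 281 at 60, 66 and 72 h. The 60 h array was thus 8.57 times the 54 h array, a change that 34 of 32112 probes reached. The signal was back near its earlier range at 72 h, when MT2A was still 3.56 above its 54 h value on the log2 scale. With spike-in scaling SLC30A1 minus its 54 h value was −0.006 at 66 h and −0.92 at 72 h on that scale. MT2A minus its 54 h value was then 2.47 at 72 h. The highest SLC30A1 array (60 h) came before the highest MT1 and MT2A array (66 h) and rests on 1 array. Neither the line nor the spline passed over 19 arrays (adjusted p = 0.699 and 0.0635). On the arrays from 3 to 54 h it fell (−0.0251 ± 0.00806 per hour, adjusted p = 0.0172).

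The other listed MTF1-responsive genes took other courses. GCLC, which makes the first step of glutathione synthesis, fell from 3958 at 3 h to 1891 at 72 h (−0.0165 ± 0.00137 per hour, adjusted p = 2.1e-08), under all 4 scalings. The zinc importer SLC39A10 fell from 2543 to 1646 (−0.00368 ± 0.00151, adjusted p = 0.0463), but did not pass with normexp (0.227). SLC30A10, an exporter that carries manganese, was between 15.3 and 221 and highest at 28 h. From 48 to 72 h these 3 genes fell and 0 of the 4 rose, where 11.5% and 8.75% of probes did. The list does not record whether MTF1 raises or lowers each gene, so these counts do not measure its activity.

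Of 47 listed genes that handle zinc, copper or iron, 45 were tested, and 10 rose and 10 fell over 19 arrays, where 30.9% of all probes rose and 22.4% fell. Their median slope was −0.000245 per hour, against 0.00236 over all probes. The directions depend on the scaling: with the array median 3 rose and 19 fell, where 14.6% and 34.6% of all probes did, and with the slide as a block 3 rose and 0 fell, where 4.71% and 4.47% did. With that block, the calls of SLC30A5, SLC39A4, SLC39A5 and GCLC held among the metal and MTF1-responsive genes named here, and those of the others did not.

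For each of the groups that follow, the share of all probes was 30.9% rising and 22.4% falling. Among zinc exporters 3 of 9 tested rose and 1 fell. SLC30A3, which loads vesicles with zinc, fell from 4131 at 3 h to 1701 at 72 h (−0.0183 ± 0.00323 per hour, adjusted p = 0.000113), under all 4 scalings. SLC30A5, of the early secretory route, rose from 1446 to 2580 (0.0171 ± 0.00210), and SLC30A6, its partner, from 154 to 223. Neither passed with spike-in scaling (adjusted p = 0.109 and 0.904), nor SLC30A6 with the array median (0.236). SLC30A8, the exporter of insulin granules, was called upward but was well above background on 6 arrays only, with a highest signal of 49.0, and it did not pass with the array median (adjusted p = 0.106), spike-in (0.361) or normexp scaling (0.305). SLC30A9 and SLC30A7, the brightest exporters not called on the line over 19 arrays, lay between 466 and 1152 and between 312 and 745. From 48 to 72 h SLC30A9 (−0.0597 ± 0.00723 per hour, adjusted p = 8.6e-05) and SLC30A10 fell and SLC30A6 rose (0.0209 ± 0.00630), where 11.5% and 8.75% of all probes did.

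Among zinc importers 2 of 13 tested rose (30.9% of all probes) and 4 fell (22.4%). SLC39A5 rose from 41.8 at 3 h to 99.4 at 54 h and to 128, 233 and 226 on the last 3 arrays (0.0282 ± 0.00302 per hour, adjusted p = 4.1e-07), under all 4 scalings and with the slide as a block. SLC39A4, the intestinal importer, rose from 1564 to 2517, but did not pass with the array median (adjusted p = 0.0955) or spike-in scaling (0.785). SLC39A14, which carries zinc, iron and manganese, fell from 19634 to 9122 (−0.0122 ± 0.00191), and SLC39A8 from 2636 to 1757 (−0.00927 ± 0.00281), both under all 4 scalings. SLC39A13 and SLC39A7, importers of the secretory route, were not called and lay between 6560 and 10403 and between 2942 and 6377. From 48 to 72 h 3 of the 13 rose (SLC39A5, SLC39A9 and SLC39A11) and 3 fell (SLC39A1, SLC39A10 and SLC39A14), where 8.75% and 11.5% of probes did.

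Among copper genes 2 of 11 rose (30.9% of all probes) and 3 fell (22.4%). ATP7A, the copper pump, rose from 199 to 367 (0.0143 ± 0.00354 per hour) and CCS, the copper chaperone of SOD1, from 1886 to 2364 (0.00863 ± 0.00162). SCO1 and COX17, which bring copper to cytochrome c oxidase, fell (−0.00638 ± 0.00139 and −0.00579 ± 0.00179). ATP7A and CCS did not pass with spike-in scaling (adjusted p = 0.376 and 0.981), nor CCS with the array median (0.206), and SCO1 and COX17 did not pass with normexp (0.0606 and 0.836). On the third slide alone CCS fell (−0.0175 ± 0.00446 per hour), as did SLC31A1, and COX17 rose (0.0189 ± 0.00429). There 11.5% of all probes fell and 8.75% rose. SOD1 lay between 41335 and 58096 and ATOX1 between 6013 and 9209, without a call.

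Among iron genes 3 of 12 rose (30.9% of all probes) and 2 fell (22.4%). IREB2 and FBXL5, the regulators that read cell iron, fell from 7550 to 4562 (−0.00905 ± 0.00208) and from 5700 to 3781 (−0.00899 ± 0.00160), under all 4 scalings. FTL, the light chain of the iron store ferritin, rose from 41636 to 68516 (0.00793 ± 0.00150) and ACO1 from 1637 to 2262 (0.00790 ± 0.00129), and neither passed the test with the array median or spike-in scaling. FTH1, the heavy chain, lay between 141970 and 182353, and TFRC, the transferrin receptor, between 7543 and 18961, highest at 3 and 36 h.

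Glucocorticoids are the other classical inducer of MT2A, so their target genes were set beside it. Of 7 tested, 1 rose (ZBTB16, from 133 at 3 h to 477 at 72 h, 0.0210 ± 0.00365 per hour) and 1 fell (FKBP5, from 635 to 291, −0.0134 ± 0.00203), both under all 4 scalings, where 30.9% and 22.4% of probes did. With a slide block neither passed (adjusted p = 0.454 and 0.123). From 48 to 72 h 0 rose and 2 fell (FKBP5 and SGK1), where 8.75% and 11.5% of probes did. SGK1, highest at 16 h with 10217, was at 6622 at 54 h and 3433 at 72 h, and PER1, a clock gene, was at 1965, 3624 and 2312 at 54, 60 and 66 h. At the same times DUSP1, a phosphatase of MAP kinases, was at 734, 1825 and 762, and the transcription factor KLF9 at 764, 1253 and 604; these 2 were named after their values were seen.

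Markers of fibroblasts, the other cell type listed, are given beside the late change. Of 9 listed, 3 (COL1A1, COL1A2 and THY1) were well above background on all arrays, and COL3A1, LUM, POSTN and FAP on 1, 1, 2 and 0. The summed signal of the 9 was 39379 at 3 h and 27219, 29956, 37392 and 47194 from 54 to 72 h, within 26459 to 47194 on all arrays. Its largest part, THY1, which stem cells also carry, was at 14146 at 54 h and 16233, 24240 and 33070 afterwards. The other detected markers did not share this: COL1A1 was at 7364 at 54 h and 7678 at 72 h and COL1A2 at 5588 and 6334, and 1 of the 5 tested (THY1) rose from 48 to 72 h, where 8.75% of probes did. Among the 6 pluripotent markers, NANOG was at 21910 at 54 h and at 37026, 39129 and 36031 afterwards and was called upward on that slide, and DNMT3B downward, while the other 4 had no call. The part of these in the metallothionein signal was not tested.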

How the data were processed

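RNA of 19 samples was measured on 19 one-colour Agilent arrays. The authors deposited the Agilent Feature Extraction output (version 10.10.1.1 per the submitters' processing notes), in which each spot has a background-subtracted processed intensity, raw median intensities and flags (other values, 0 or 1) for outliers, saturation and signal well above background. A second table from the authors holds intensities that, checked against this output, equal the processed intensity times 1 factor per array (0.905 to 1.38) within 1% for at least 99.8% of values of each array, and whose blanks were at least 99.6% not well above background. Other columns were not used here.

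Flagged spots (0.632%) were left out, replicate spots were averaged per probe, and the 75th percentile of each array was subtracted from its log2 intensity (655 to 1003 before scaling; 49.6% to 64.7% of probes well above background). Of 50683 probes, 28174 were named by RefSeq accession (20503 genes, GRCh38.p14 names), and the test took the 32113 that were well above background on 5 or more arrays, in R 4.3.3 with the limma package (3.58.1; moderated statistics, Benjamini-Hochberg adjustment, threshold 0.05): a line on hours, a natural spline in log2 hours with 4 degrees of freedom, and a line within each slide. All p-values measure scatter between arrays of single cultures. Tables used Python 3.11.15 with pandas 2.3.3.

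All 10 genes were described with every probe. From each list up to 4 called genes with the largest slope and the 2 brightest uncalled ones were named. So were the 5 genes outside the 10 with courses most like MT2A, MT1X and MTF1. HERPUD1, NANOG, DUSP1, KLF9, HSPA1A and HSPA1B values at single times and the step were chosen after seeing the data. The members and lists were chosen with earlier results of these data known. Alternatives were the array median, spike-in RNA, normexp (offset 50) with quantile normalisation, the deposited table, other filters, log2 hours, a cubic polynomial, all detected probes of a gene, a block for slide, only the times up to 54 h, and each array left out. The result of 1 gene beside the cluster is not reported here.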

Additional observations from a re-analysis of the deposited data

How the results depend on the processing

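No paired analysis was possible because the 19 times have 1 array each and share no replicates. Of the 10 genes, 2 rose and 0 fell on a line over 19 arrays. Risers numbered 0 with the array median, spike-in scaling or a slide block, and 1 with the deposited table, no background filter, log2 hours or the arrays from 3 to 54 h; with each array left out they numbered 1 to 2. Fallers numbered 1 (MTF1) with the array median, spike-in scaling, normexp or log2 hours, 8 on the arrays from 3 to 54 h, and 0 to 1 with each array left out. Among all probes 34.6% fell with the array median and 20.6% on the arrays from 3 to 54 h. On the second slide, fallers numbered 7 on the arrays from 3 to 54 h and 0 to 1 with each array left out. Within 48 to 72 h, risers numbered 7 to 8 with each array left out and 0 when its last 3 arrays were dropped. With spike-in scaling 2 genes fell there, MT3 (−0.0462) and MTF1. Under that scaling the median step of all probes was −0.78, against −0.74 in MT3 and −0.90 in MTF1, so the 2 calls do not set these genes apart. For the step, risers numbered 7 with spike-in scaling, 8 with normexp and 0 with any array left out. Of the metal handling genes, risers (10) numbered 3, 1 and 3 with the array median, spike-in scaling and slide block, and fallers (10) numbered 19, 16 and 0, and 6 with normexp; with each array left out they numbered 10 to 12 and 9 to 11.

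Signs turned as follows, in log2 units per hour. On the arrays from 3 to 54 h the slopes were −0.0387 (MT2A), −0.0219 (MT1X), −0.0447 (MT1E), −0.0524 (MT1G), −0.0313 (MT1H), −0.0401 (MT1M) and −0.00723 (MT1A). Per unit of log2 hours they were −0.0564 (MT1E), −0.116 (MT1G) and −0.00739 (MT1M). With a slide block they were 0.0144 (MT1F) and −0.000758 (MT3). MT1G was at −0.000177 with the array median and −0.00338 with spike-in scaling. With spike-in scaling ACO1 was at −0.000562, FTL at −0.000533 and SLC30A6 at −0.000692, and the mean of its probes put NUDT21 at −0.00256. With each array left out, slopes spanned −0.00184 to 0.0157 (MT1E), −0.0126 to 0.000236 (MT1F), −0.00698 to 0.0119 (MT1G) and −0.00193 to 0.0163 (MT1M). On the second slide MT3 was at 0.00442 with normexp and −0.00778 to 0.00125 with each array left out, and MTF1 at −0.000763 (array median), −0.00800 (spike-in) and −0.00149 to 0.00279. Within the slide of 48 to 72 h, 48 and 54 h alone gave −0.120 (MT2A), −0.0717 (MT1X), −0.118 (MT1E), −0.0653 (MT1F), −0.146 (MT1G), −0.0765 (MT1H), −0.125 (MT1M), −0.0380 (MT1A), −0.00734 (MT3), 0.0305 (MTF1), −0.110 (MT1B) and −0.115 (MT1L). There MT3 was at −0.00234 with the array median, and MTF1 spanned −0.0102 to 0.00194 with each array left out. The step of MT3 was −0.033 with the array median and −0.74 with spike-in scaling. The causes were not tested, apart from the dropped arrays, which hold the late rise.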
